A study of Mus musculus with 6 samples.

Results

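The 97 brightest microRNA (miRNA) probes of a mouse heart array are described here, out of 9709 probes that the array design lists as miRNA probes. They were chosen by signal alone: the log2 signal of each, averaged over 6 arrays, was at least 12. In linear units of the scanner, the 3 dimmest probes inside this limit had mean signals of 4120, 4127 and 4200, and the 3 brightest outside it had 4049, 4023 and 3983. Within the 97 probes the mean signal ran from 4120 to 63945 units, with a median of 7940 units. The mean of both groups was used for the choice, so high signal is not a result. The mean log2 signal of 73 members reached 12 in both groups, that of 23 in sham but not in MI, and that of 1, number 578, in MI but not in sham. These last 24 are members through the group in which they are brighter, so their difference is tied to the choice and is given without a test of its own. Counts of calls over the 97 members include them. Every probe had 1 spot per array, and all 97 spots were well above background and none was saturated on any of the 6 arrays.

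The study set the heart 3 days after myocardial infarction (MI) against sham surgery in male C57BL/6J mice aged 6 to 8 weeks and weighing 20 to 25 g. In the MI group (3 samples) the left anterior descending coronary artery was tied, an elevated ST segment was seen in the electrocardiogram, and the infarcted area was sampled. In the sham group (3 samples) a thread was passed through the heart muscle without tying, and tissue came from the matching region. From each sample 100 ng of total RNA was treated with T4 polynucleotide kinase to free the 3′ ends, ligated to a Cy3-labelled nucleotide and hybridised in 1 colour to an array of 9709 miRNA, 1767 tRNA-derived (TRF) and 2716 other small RNA (PST) probes. The labels name no transgene or drug in either group. The labels do not say whether each sample was a separate mouse, so the p-values measure the spread between these samples.

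miRNAs are short RNAs cut from hairpin precursors and loaded into Argonaute proteins, where the bases near the 5′ end, the seed, pair with target mRNAs and lower their translation and stability. A few miRNAs made by heart muscle cells supply much of the miRNA pool of a healthy heart. After an infarction muscle cells die in the ischaemic area while inflammatory cells and fibroblasts gather there, and each of these cell types has its own set of abundant miRNAs. In tissue RNA, fewer cells of a type and less RNA per cell cannot be told apart.

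The files give each miRNA probe an identifier with a running number and neither a miRNA name nor a sequence. None of the 97 identifiers (0 of 97) matched a name in the RefSeq miRNA table for GRCm38.p6, so members are named here by number, such as 578 for ASMM10SMR20MIRNA100000578TV1, and no sequence is shown. Probes bind and label with different efficiency, so the signals of different probes do not rank amounts of RNA. The tissue could not be checked against cell type markers: of the 50 mRNA probes on the array 46 were named through RefSeq, and 0 of 23 marker genes of muscle cells, fibroblasts, endothelium and myeloid cells were among them. Slide 1 held the 3 MI arrays and sham 1, and slide 2 held sham 2 and sham 3. Sham 3 was the only array whose processed signal carried a spatial correction, which moved the members' signals by -32.1% to 12.1%.

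Against the rest of the array the brightest miRNA probes had lower signal in the infarcted heart. Their summed signal was 57.9%, 53.9% and 43.8% of all miRNA signal on MI 1, 2 and 3, and 66.3%, 65.3% and 63.4% on sham 1, 2 and 3. The means were 51.9% ± 7.24 (SD, n = 3) in MI and 65.0% ± 1.46 (SD, n = 3) in sham. The groups did not overlap, and MI 3 was the lowest. These sums include the 23 members that reach the limit in sham alone and the 1 that reaches it in MI alone. The lower share in MI is thus tied in part to the choice of members. The share of the 73 members that reach the limit in both groups was not taken.

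The median signal of the 97 probes was 7733, 5232 and 4745 units on the MI arrays and 9334, 9670 and 11971 units on the sham arrays. In log2, where each unit is a factor of 2, this median lay 6.82, 6.06 and 5.61 above the 75th percentile of all probes on the MI arrays and 7.56, 7.82 and 7.17 above it on the sham arrays. The difference, MI minus sham, was -1.36, and -1.40 with slide 1 alone. Part of this distance came from the reference: the 75th percentile itself was 0.52 higher in MI before any scaling.

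Other references gave a negative shift of another size. Against the median of the 531 other miRNA probes whose mean signal reached 200 units, the member median shifted by -1.10 (-1.25 on slide 1). Against the median of 487 TRF probes with a mean log2 signal of at least 12, which was itself 0.23 lower in MI (log2 difference -0.23), it shifted by -0.61 (-0.50 on slide 1). The 3 MI values lay below the 3 sham values with each of the 3 references. The member median also includes the 23 members that reach the limit in sham alone. All these shifts are thus tied in part to the choice of members, and the median of the other members was not taken.

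On the scale of the 75th percentile, limma with Benjamini-Hochberg adjustment over all 11955 small RNA probes tested put 69 of the 97 members lower in MI at an adjusted p under 0.05, which is 71.1% of them. In the same fit 3.8% of all probes tested were called lower and 0.309% higher. No member (0 of 97) was called higher, and 1 had an unadjusted p under 0.05 with a positive difference. The members' differences ran from -1.86 to 1.09 with a median of -1.33, and 4 were positive. When only the 1481 probes whose mean signal reached 200 units were tested, 72 members (74.2%) were called lower, beside 22.1% of all. The median difference over those 1481 probes was -0.62. Against the median of the bright TRF probes 0 members were called lower, beside 0% of all probes. With slide as a block 0 members were called lower, beside 0% of all 11955 probes. In that limma fit 78 members had an unadjusted p under 0.05, beside 1446 of the 11955 probes. On slide 1 alone, with 1 sham array, the members' differences had a median of -1.42. All 23 members that reach the limit in sham alone were among the 69, so the choice of members adds to the share of 71.1%. The other 46 called were among the 73 that reach the limit in both groups. The count of members called lower was 0 without MI 2, 0 without sham 1, 17 without MI 3 and 5 without sham 2. The shares of all probes called lower in these fits were 0%, 0%, 1.02% and 1.19%.

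The 28 members that were not called lower on that scale included the 4 with positive differences, 575 to 578, and all 13 members of the runs 5047 to 5051, 5092 to 5096 and 5776 to 5780. The other 11 were 32, 564, 592, 614, 1112, 1114, 1413, 1547, 1549, 5139 and 5141. By brightness, 40 of the 51 members with a mean log2 signal of 12 to 13 were called lower, 21 of the 28 between 13 and 14, and 8 of the 18 above 14. The median difference on the 75th percentile scale was -1.44, -1.33 and -0.86 in these 3 ranges. All 23 members that reach the limit in sham alone lie in the range of 12 to 13, and all were called lower. The count and median of that range are thus tied to the choice of members, so no trend with brightness is read from them. The shares of all probes called in these ranges were not taken.

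To compare the brightest probes with each other, each member's log2 signal was set against the median of the 97 members on the same array. This scale removes the shift they share and forces about equal numbers above and below 0, so its balance (52 positive, 45 negative by construction) is no result. The differences, MI minus sham, ran from -0.50 to 2.45, and the quartiles were -0.23 and 0.34.

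On this scale limma called 5 members higher in MI (5.15%), 578 among them, and 0 lower, and 0 members had an unadjusted p under 0.05 with a negative difference. These counts stand beside a background of 81.3% of all 11955 probes called higher and 0% called lower, because nearly all dim probes lie higher in MI once the bright members set the scale. The share of members called is therefore far below the background and says nothing for the members as a set. The fit also gave every probe the same standard error of 0.453, so its p-values rest on a spread pooled over all probes tested. The members' own SDs had medians of 0.147 over MI and 0.125 over sham arrays. The called members differed in this: the sham SD was 0.785, 0.697 and 0.666 for 575, 576 and 577, and 0.125 for 1413. When only the 1481 probes whose mean signal reached 200 units were tested, the same 5 members were called, with standard errors of 0.244 to 0.395 in limma. In that fit 22.5% of all probes were called higher and 0% lower, so 5 of 97 members is below its background too. With slide as a block 0 members were called, beside 1.43% of all 11955 probes called higher. In that limma fit 4 members had an unadjusted p under 0.05, beside 3711 of the 11955 probes, so these 4 are below the background too.

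The 4 highest members had consecutive numbers, 575 to 578. Probe ASMM10SMR20MIRNA100000578TV1 gave 10783, 14095 and 9617 units on the MI arrays and 4102, 4584 and 2684 units on the sham arrays. It was among the dimmest members on every sham array and in the upper part of the list on every MI array. Its difference on the member-median scale was 2.45, with means of 0.98 ± 0.48 (SD, n = 3) in MI and -1.47 ± 0.59 (SD, n = 3) in sham. Its mean log2 signal was 13.47 in MI and 11.85 in sham, so it reached the limit of 12 through the MI arrays, and the difference is a description.

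Probe ASMM10SMR20MIRNA100000577TV1 gave 21455, 18626 and 13212 units on the MI arrays and 7444, 8464 and 4514 units on the sham arrays. Its difference on the member-median scale was 2.24 (SE 0.453, limma adjusted p = 9.52e-05), with all 3 MI values above all 3 sham values. The limma fit on probes whose mean signal reached 200 units gave an adjusted p of 0.00964 (SE 0.354). Sham 3 was the lowest array for this probe, as it was for 575, 576 and 578.

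Probe 575 gave 25507, 21640 and 15239 units in MI and 9218, 10662 and 4890 units in sham, a difference of 2.21 on the member-median scale. Probe 576 gave 27325, 22250 and 15506 units in MI and 9677, 11033 and 5665 units in sham, a difference of 2.15. The groups did not overlap for either probe in plain signal or on the member-median scale.

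The mean of 575 to 578 on the member-median scale was 1.57 ± 0.25 (SD, n = 3) in MI and -0.70 ± 0.69 (SD, n = 3) in sham, a difference of 2.26. The array values were 1.37, 1.85 and 1.47 in MI and -0.37, -0.23 and -1.48 in sham. These 4 probes were the members whose signal was higher in MI on each of the scales run, by 0.91 on the 75th percentile scale and 1.43 without scaling. On slide 1 alone the member-median difference was 1.93.

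Their calls depended on the scale and on the slide. Probes 575, 576 and 577 reach the limit in both groups. Their adjusted p on the member-median scale was 9.52e-05 to 1.98e-04 in limma, and 0.158 with slide as a block. It was 0.00964 to 0.0128 in the limma fit on probes whose mean signal reached 200 units. On the 75th percentile scale their differences of 0.80 to 0.88 had an adjusted p of 0.383 to 0.460, and without sham 3 the differences there were 0.22 to 0.33. Without scaling their differences of 1.32 to 1.40 had an adjusted p of 0.133 to 0.210.

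Probe 579, next to this run in number, is no member, since its mean signal was 879 units. It gave 1302, 2436 and 1669 units in MI and 480, 533 and 339 units in sham, a difference of 2.81 on the member-median scale. Probe 580 differed by 0.35, and probes 570 to 574 by 0.99 to 1.27. On the 75th percentile scale 579 differed by 1.45, 580 by -1.01 and 570 to 574 by -0.37 to -0.09. The median over the 531 other miRNA probes above 200 units was 0.95 on the member-median scale, so 570 to 574 lay near it. Of the 531 other miRNA probes above 200 units, 14 reached the lowest of the 4 highest members' differences, 2.15, and the brightest of these 14 had a mean signal of 1381 units.

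The fifth member called higher, 1413, stood alone in number; it is named because it completes the 5 calls, a choice made after its values were seen. It gave 9393, 9142 and 8548 units in MI and 5915, 7250 and 7961 units in sham. The plain signals of the groups did not overlap, and sham 3 was the nearest to the MI arrays. The difference on the member-median scale was 1.20 (SE 0.453, limma adjusted p = 0.0134). It was -0.16 on the 75th percentile scale (adjusted p = 0.779) and 0.37 without scaling (adjusted p = 0.413), so the direction turned with the scale. The adjusted p on the member-median scale was 0.0800 without MI 2 and 0.0677 without sham 1.

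No member was called lower on the member-median scale, and the largest negative differences belonged to 2 neighbours. Probe ASMM10SMR20MIRNA100000499TV1 gave 7659, 4139 and 4547 units in MI and 12272, 11515 and 16359 units in sham. Its difference was -0.50 on the member-median scale (limma adjusted p = 0.280) and -1.86 on the 75th percentile scale (adjusted p = 0.0181). MI 2 and MI 3 were the lowest arrays for this probe, and the groups did not overlap on either scale.

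Probe ASMM10SMR20MIRNA100000498TV1 gave 4490, 2957 and 3221 units in MI and 7440, 7245 and 11710 units in sham. Its difference was -0.46 on the member-median scale and -1.82 on the 75th percentile scale. Its mean log2 signal was 11.77 in MI and 13.07 in sham, so it reached the limit through the sham arrays, and these values are a description. Sham 3 was the highest array, and the groups again did not overlap.

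Counting members whose 3 MI and 3 sham values did not overlap on the member-median scale, 11 of 97 (11.3%) were higher and 19 (19.6%) lower in MI. Over all probes tested 82.3% were apart and higher and 0.284% apart and lower on this scale. The 11 higher members were 575 to 578, 1413, 564, 614, 5048, 5096, 5776 and 5779. The 19 lower members had differences between -0.50 and -0.21, and none of them passed the limma test on this scale. Of the 11 higher members 1, and of the 19 lower members 7, reach the signal limit in 1 group alone.

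Ranks within an array need no scale. Spearman correlations of the 97 signals were 0.895 to 0.970 between MI arrays, 0.913 to 0.980 between sham arrays and 0.592 to 0.896 between an MI and a sham array, given as a description, since all probes share the arrays. Against sham 1 alone, on the slide of the MI arrays, the 3 MI arrays gave 0.738 to 0.873. The order of the list was thus less alike between the groups than within them, with ranges that touch.

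The top of the list kept much of its membership. Of the 10 brightest members of each array, 6 were shared by all 6 arrays, 6 by the 3 MI arrays and 9 by the 3 sham arrays. Probe 10 was the brightest on all sham arrays and on MI 1, with 61194, 39200 and 39196 units in MI and 82034, 78373 and 113092 units in sham. Probe 5776 was the brightest on MI 2 and MI 3, with 46487, 59209 and 48049 units in MI and 51630, 50987 and 61612 units in sham. Probe 10 was dimmer on every MI array than on any sham array, while the signals of 5776 overlapped.

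Between the group mean ranks, where rank 1 is the brightest, the median change was 8.67 places and 14 members moved by more than 20 places. Probe 578, a member through its MI signal alone, made the largest gain, from a mean rank of 95.7 in sham to 24.3 in MI. Probes 577, 575, 576 and 1413 followed, with rank changes of -57.7, -50, -49 and -44 places, where a negative change is toward the top. Probe 498, a member through its sham signal alone, had the largest loss, 25 places, from 63.3 to 88.3. The place of both near the bottom of the list in 1 group goes with the limit that chose them.

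The 3 MI and 3 sham ranks did not overlap for 10 members that moved up and 36 that moved down, of which 1 and 14 reach the signal limit in 1 group alone. When the rank was taken among all miRNA probes in place of the members, the same counts were found, 10 (10.3%) up and 36 (37.1%) down. Over the 9694 miRNA probes ranked on all arrays, 9.28% were apart and nearer the top and 13% apart and nearer the bottom in MI. The share of members moving up was close to that of all miRNA probes. A probe near the top of the list can lose more places than it can gain. On slide 1 alone, with 1 sham array, 18 members (18.6%) were apart and up and 48 (49.5%) down among all miRNA probes, beside 41.2% and 31.6% of all miRNA probes. Without MI 1 the counts were 28 (28.9%) up and 49 (50.5%) down, beside 13.6% and 16.6%. Ranked among the members alone, 19 were apart and up and 46 down on slide 1, and 30 and 48 without MI 1.

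The members were not spread evenly over the identifiers. Of the 1000 probes numbered 0 to 999, 68 were members (6.8%), of the 1000 numbered 1000 to 1999 10 were members (1%), and of the 996 numbered 5000 to 5999 19 were members (1.91%). No probe of the other blocks of numbers was a member. The median difference on the member-median scale was -0.04 in the first of these blocks, 0.18 in the next and 0.63 in the last. In the last block 15 of 19 members had positive differences on that scale, while without scaling all 19 were negative (-1.20 to -0.02, median -0.20) and on the 75th percentile scale their median was -0.72.

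Members with neighbouring numbers had like differences. When members whose numbers differ by at most 5 were joined, 85 of the 97 fell into 16 groups of at least 3, 6 into pairs and 6 stood alone. The absolute difference between neighbours' values of MI minus sham had a median of 0.07 over 72 neighbouring pairs, beside 0.37 over all 4656 pairs of members. Both neighbours had the same sign in 61 of the 72 pairs. Over the 6 arrays the median correlation of neighbours on the member-median scale was 0.931, beside 0.316 over all pairs; pairs share arrays, so these are descriptions.

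On the glass the spots of neighbouring members lay a median of 59.7 grid steps apart, and 0 of the 72 pairs touched. No distance over all pairs of members was taken, so a part played by position on the glass was not tested. Among the 531 other miRNA probes, 407 neighbouring pairs had a median absolute difference of 0.08, beside 0.72 over all pairs, a comparison added after the data were seen. Whether neighbours share sequence was not tested, because no sequences were at hand, and neighbouring members are not independent replicates of a miRNA.

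Of the 16 groups, the 3 MI and 3 sham means did not overlap for 2 higher and 4 lower groups on the member-median scale. The higher groups were 575 to 594 (13 members, difference 0.62) and 5776 to 5780 (5 members, 0.70). The first was uneven, with member differences from -0.35 to 2.45. Joining only numbers that differ by at most 2 divided it into 575 to 578 with a difference of 2.26, 581 to 584 (3 members) with 0.06 and 589 to 594 (6 members) with -0.20. The last of these was lower in MI on this scale without overlap.

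The 13 members of 3 runs in the 5000 block had unscaled differences close to 0, beside a median of -0.81 over all 97 members. The mean of 5776 to 5780 corresponded to 19610, 27146 and 21892 units on the MI arrays and 22683, 22681 and 29520 units on the sham arrays. The mean of 5092 to 5096 (3 members) corresponded to 19925, 28534 and 21642 units in MI and 24881, 22112 and 29055 units in sham. The mean of 5047 to 5051 (5 members) corresponded to 13011, 17281 and 15358 units in MI and 16090, 16500 and 19418 units in sham. In each of the 3 runs MI 1 was the lowest array and sham 3 the highest, and the groups overlapped.

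On the member-median scale these runs differed by 0.70, 0.71 and 0.64, with MI SDs of 0.55, 0.56 and 0.55 and sham SDs of 0.04, 0.11 and 0.05 (n = 3 each). On MI 1 their means were close to those of the sham arrays: 5776 to 5780 stood at 1.34 on MI 1, 2.38 on MI 2 and 2.21 on MI 3, beside 1.28, 1.23 and 1.30 on the sham arrays. Without scaling the differences were -0.13, -0.13 and -0.19, on the 75th percentile scale -0.65, -0.65 and -0.72, and against the bright TRF probes 0.10, 0.10 and 0.03. The direction of these runs thus turned with the scale. No member of them passed the limma test on the member-median or the 75th percentile scale.

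Leaving out MI 1 changed this. Without it limma called 21 members higher on the member-median scale, among them all 13 members of these 3 runs, with group differences of 1.02, 1.02 and 0.96. In that fit 96.1% of all 11962 probes tested were called higher, so 21 of 97 members (21.6%) is far below the background and the calls say nothing for these runs as a set. It also called 614, 5139 and 5141 beside the 5 members called with all arrays. In the same fit 1 member, 499, was called lower, with a difference of -0.57 (adjusted p = 0.0486), beside 0.0334% of all probes.

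The 4 groups that were lower without overlap had small differences and tight arrays. Group 498 to 504 (3 members) stood at -0.56, -0.68 and -0.42 in MI and at -0.17, -0.27 and -0.00 in sham on the member-median scale, a difference of -0.40. Group 45 to 48 (4 members) stood at -0.56, -0.78 and -0.52 in MI and at -0.40, -0.36 and -0.09 in sham, a difference of -0.34. Sham 3 was the highest array in both groups.

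Group 1185 to 1189 (4 members) stood at -0.58, -0.69 and -0.51 in MI and at -0.25, -0.35 and -0.17 in sham, a difference of -0.33. Group 5072 to 5076 (3 members) stood at -0.42, -0.41 and -0.26 in MI and at -0.03, -0.16 and -0.07 in sham, a difference of -0.27. This last group lies between the runs 5047 to 5051 and 5092 to 5096 in number and differed from them in sign on this scale. Without scaling all 3 were negative, at -1.10 beside -0.19 and -0.13. All 14 members of the 4 lower groups were called lower on the 75th percentile scale, where the group differences were -1.76, -1.69, -1.69 and -1.63. This stands beside 71.1% of the 97 members and 3.8% of all probes tested called lower there. Of the 14 members, 45, 46, 48, 498, 504, 1185, 1187 and 5072 reach the signal limit in sham alone. Their calls are tied to the choice of members and say nothing further for the groups.

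The other 10 groups overlapped on the member-median scale. The largest, 530 to 553 with 16 members, differed by 0.08, and all 16 were called lower on the 75th percentile scale. On that scale 71.1% of the 97 members and 3.8% of all probes tested were called lower, and 0 members with slide as a block. Among these 16, 544, 548 and 553 reach the signal limit in sham alone. Within this group, 548 to 553 (5 members) differed by 0.22 and 539 to 544 (6 members) by -0.0045 on the member-median scale. Group 10 to 14, which holds the brightest probe, differed by -0.01 and group 85 to 89 by 0.00. All 4 members of each were called lower on the 75th percentile scale, and probe 14 reaches the limit in sham alone. Groups 32 to 39, 75 to 79, 368 to 373, 465 to 469 and 600 to 614 differed by -0.14, -0.12, -0.19, 0.04 and -0.19. In the last of these, 614 differed by 0.46 while 603 differed by -0.43, the widest spread after that of 575 to 594.

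The 12 members outside the groups ran from -0.36 to 1.20 on the member-median scale. In the pair 1112 and 1114 the MI arrays disagreed. Probe 1112 gave 7733, 4214 and 3470 units in MI and 7406, 6136 and 6729 units in sham, and probe 1114 gave 8074, 4448 and 3493 units in MI and 7987, 6206 and 7029 units in sham. MI 1 was the highest array for both.

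In the pair 1547 and 1549 the sham arrays disagreed. Probe 1547 gave 4306, 6331 and 3743 units in MI and 5563, 7230 and 3528 units in sham, and probe 1549 gave 4881, 6961 and 4347 units in MI and 6487, 7923 and 4591 units in sham. MI 2 and sham 2 were the highest arrays for both, and the groups overlapped.

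In the pair 5139 and 5141 the differences were 0.61 and 0.39 on the member-median scale. Of the single members 564, 23, 1013, 123 and 5920 the differences were 0.31, 0.03, 0.02, -0.04 and -0.36. Among these 5, the groups did not overlap for 564, which was higher, and 5920, which was lower.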

How the data were processed

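The submitters' processing notes name Agilent Feature Extraction 11.0.1.1. The deposited processed signal is a linear intensity that the authors' software had background-subtracted and, on sham 3, detrended; outlier spots were left out. Each array's log2 intensity was set against its 75th percentile over non-control probes or against the median of the 97 members. Differences were tested with limma 3.58.1 in R 4.3.3 (lmFit, eBayes, group only) over the small RNA probes well above background on at least 3 of 6 arrays, with Benjamini-Hochberg adjustment at 0.05. Samples were grouped by their titles; replicate numbers do not pair them.

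Members and lists were chosen with earlier results of these data known. Identifiers printed in full are the 2 largest rises and the 2 largest falls on the member-median scale among members whose groups did not overlap, called members first. Alternatives covered the scale, normexp background (offset 50), the detrend, filters, outlier spots, slide, replicate block, array weights, variance model, threshold and each array in turn. The number of arrays limits the precision.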

Additional observations from a re-analysis of the deposited data

How the results depend on the processing

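Members called higher on the member-median scale numbered 5. They numbered 19 with normexp background, 15 with a trended robust variance, 12 with quantile normalization and 38 with array weights (which did not converge), where 94.8%, 80.4%, 55.1% and 98.8% of all probes were called higher, and 0 with slide as a block (1.43%) or slide 1 alone (0.543%). With other scales they numbered 0 (75th percentile), 0 (no scaling), 1 (other high-signal miRNA probes) and 1 (bright TRF probes), beside 0.309%, 0.276%, 0.644% and 0.995% of all probes, and 8 (89.8% of all) with the scale set by members outside the rising groups, which was added after the data were seen. A member threshold of 11 in log2 gave 9 of 139 and one of 13 gave 3 of 46, beside 84.9% and 80.6%. Leaving out each array gave 4 to 21, the highest without MI 1, beside 31.5% to 96.1% of all probes. The causes were not tested.

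Members called lower on that scale numbered 0, but 41 with array weights, 69 on the 75th percentile scale, 33 against the other high-signal miRNA probes (0.736%, 3.8% and 0.56% of all probes) and 0 to 1 without each array. On the 75th percentile scale 0 were called higher (0.309% of all probes), and 1 with array weights (1.45%). The 69 called lower became 26 with no filter on dim probes (1.79% of all probes) and 0 with slide as a block (0%). Without each array they numbered 0 to 88, beside 0% to 11.9% of all probes. Members apart and up in rank numbered 10, but 30 without MI 1. Ranked among all miRNA probes these were 10 (10.3%) and 28 (28.9%), beside 9.28% and 13.6% of all miRNA probes. Leaving out each of the other arrays gave 11 to 14, and shares of all miRNA probes were not taken there. The shift of -1.36 was -0.61 against the bright TRF probes. The median difference between neighbours was 0.06 to 0.09 under each alternative run among the members.

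Samples with the same replicate number did not deviate together (correlations 0.118, -0.221 and 0.159; 3 of 6 arrays were closest to their own number). With the replicate block 5 members were called higher and 0 lower on the member-median scale, beside 84% and 0% of all probes. On the 75th percentile scale 1 was called higher and 88 lower, beside 0.611% and 8.73% of all probes.

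None of the 4 members with printed identifiers changed direction. With 3 arrays a group, 1 slide holding all MI arrays and 1 spot per probe, array, slide and group can be separated only in part.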
